A study of Homo sapiens with 6 samples.

Results

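The genes described here are 10 of the 58735 genes in the table, taken by name: the 5 subunits of replication factor C (*RFC1*, *RFC2*, *RFC3*, *RFC4* and *RFC5*), the large subunits of the alternative clamp loaders (*ATAD5* and *CHTF18*), and the 3 subunits of replication protein A (*RPA1*, *RPA2* and *RPA3*). The rule goes by name and uses no measured value, though the genes were picked with earlier results of these data known. RNA sequencing compared 3 libraries of wild strain TPC-1 cells, a human papillary thyroid carcinoma cell line, with 3 libraries of *RRM2*-OE-TPC-1 cells, to learn which transcripts differ after overexpression of *RRM2*, the small subunit of ribonucleotide reductase. *RRM2*-OE-TPC-1 cells are TPC-1 cells infected with a lentivirus (LV18) in which the CMV promoter drives full-length *RRM2*, and they were selected with puromycin. The wild strain cells are not described as carrying a vector or as selected, so the vector, the selection and *RRM2* itself cannot be told apart in this comparison. Whether the overexpressing line is a single clone or a pool of infected cells is not given in the sources used here. The genotype labels of *RRM2*-OE-TPC-1 replicates 2 and 3 read RRM3 and RRM4, whereas their titles read RRM2. *RRM2* itself stood at 9.17, 9.05 and 8.52 FPKM (fragments per kilobase of gene, scaled to sequencing depth) in TPC-1 replicates 1 to 3 and at 50.4, 47.5 and 47.2 FPKM in *RRM2*-OE-TPC-1 replicates 1 to 3. All 3 overexpressing libraries therefore carried the labelled transcript at several times the wild strain level. The count does not separate lentiviral from endogenous *RRM2* reads.

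PCNA is a ring that slides along DNA and holds polymerases and other enzymes at the replication fork. Clamp loaders are AAA+ ATPases that open this ring and close it around primed DNA, and in each of them 1 large subunit sits with the same small subunits, RFC2 to RFC5. RFC1 is the large subunit of the loader that works at each Okazaki fragment, the CHTF18 complex also loads PCNA and is linked to sister chromatid cohesion, and the ATAD5 complex takes PCNA off DNA. RAD17 pairs with the same small subunits to load the checkpoint clamp. RPA is the trimer that coats single-stranded DNA, with most of its DNA contacts in RPA1.

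The libraries held 14317091 to 17084067 reads on genes, recovered from the FPKM values, and mitochondrial genes took 4.29% to 5.89% of them. *RRM2*-OE-TPC-1 replicate 1 stood somewhat apart, with a chi-square per gene of 5.02 and 5.68 against the other libraries of its group, compared with 1.81 between those and 2.92 to 3.08 among the TPC-1 libraries. Of 7 thyroid follicular markers only *PAX8* and *FOXE1* reached 0.5 FPKM, *TG*, *TSHR* and *SLC5A5* had at most 20 reads, and *NKX2-1* was at 0 in every library. The summed thyroid markers were 71.5 to 75.3 FPKM in wild strain cells and 59.7 to 63.1 FPKM in *RRM2*-OE-TPC-1. For 5 epithelial markers, of which *KRT18* and *KRT8* were detected at 0.5 FPKM, the sums were 41.9 to 45.8 and 87.3 to 89.7 FPKM. Summed fibroblast markers (2 of 5 detected, *COL1A2* and *DCN* at 0) reached at most 3.16 FPKM, and leukocyte markers (0 of 5 detected, *CD3E* at 0) at most 0.410 FPKM. The endothelial sum (1 of 4 detected, *KDR* at 0) was 0.873 to 1.05 FPKM in wild strain cells and 0.0667 to 0.115 FPKM in *RRM2*-OE-TPC-1. The part of these marker differences in the results below was not tested.

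Of the 10 genes, 9 rose in *RRM2*-OE-TPC-1 and *RFC1* did not pass the test. All 10 were above the minimum for testing (0.5 FPKM and 10 reads in at least 3 libraries). The test was limma on log2(FPKM + 0.1), with p adjusted by Benjamini-Hochberg over all 13621 genes tested and a threshold of 0.05. Among all genes tested, 67.6% passed this threshold, 34.9% with a higher and 32.7% with a lower level in *RRM2*-OE-TPC-1. In the same 9 genes every *RRM2*-OE-TPC-1 library lay above every TPC-1 library, which held for 37.3% of all genes tested, and the groups were separate in either direction for 72.2%. The median log2 fold change was 0.67 over the 10 genes, with a range of 0.05 to 0.97, and 0.011 over all genes tested. None of the 10 also reached an absolute log2 fold change of 1 (0 by limma and by voom, against 9 at an unadjusted p under 0.05), whereas 11.5% of all genes tested passed both thresholds, 4.48% higher and 6.97% lower. In bulk libraries, more cells of a kind that expresses a gene and more of its RNA per cell cannot be told apart. The submitters call the libraries of each strain biological triplicates without naming separate cultures, so the p-values measure the spread between these libraries, which may be technical.

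**Figure D1:**
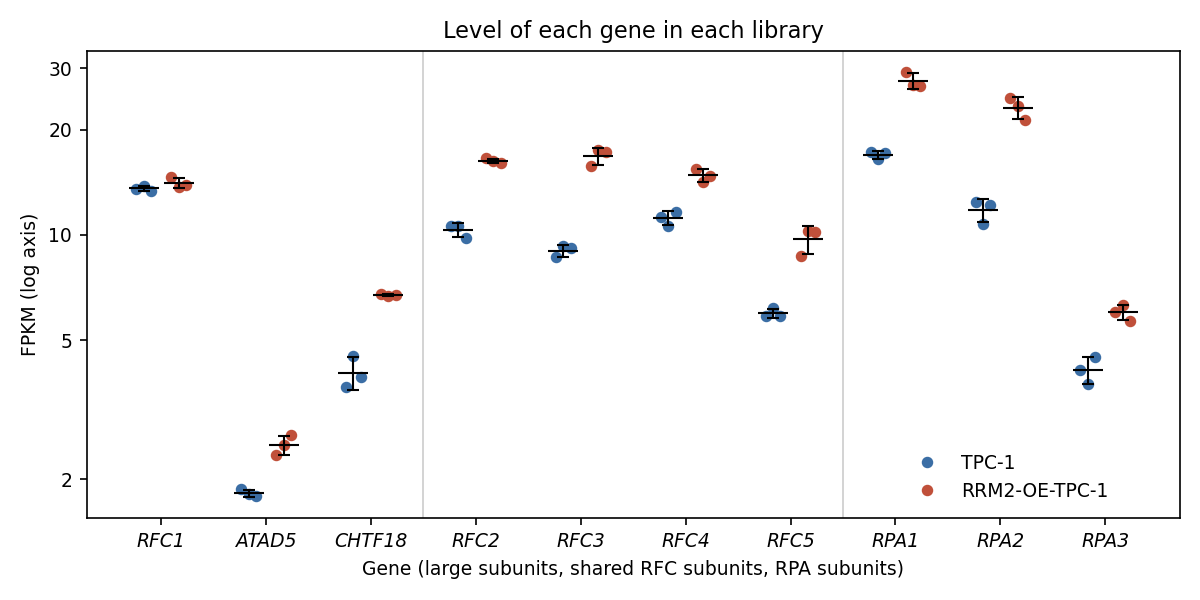
FPKM (log axis) of the 10 genes in each of the 6 libraries, with a point per library and the mean ± SD (n = 3) of TPC-1 and of *RRM2*-OE-TPC-1. The groups overlap for *RFC1* alone, and in the other 9 genes every *RRM2*-OE-TPC-1 point lies above every TPC-1 point.

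RFC1, the large subunit of the canonical loader, was the exception. *RFC1* (ENSG00000035928; GRCh38 chromosome 4, 39287456 to 39366375, minus strand) had 13.6, 13.8 and 13.4 FPKM in wild strain replicates 1 to 3 and 14.6, 13.7 and 13.9 FPKM in *RRM2*-OE-TPC-1 replicates 1 to 3. The groups overlapped, with *RRM2*-OE-TPC-1 replicate 1 highest. The means were 13.6 ± 0.226 and 14.1 ± 0.464 FPKM (SD, n = 3), and the log2 fold change was 0.05 (standard error 0.0406, limma adjusted p = 0.297). Its 95% confidence interval, -0.04 to 0.14, lies below the log2 fold change of each of the other 9 genes. The sign of the *RFC1* value was not settled, since with reads scaled to library totals it became -0.0069. Between 1419 and 1581 reads per library stood behind these values, among the deepest of the 10 genes.

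The large subunits of the other 2 loaders rose. *CHTF18* (ENSG00000127586; chromosome 16, 788046 to 800737, plus strand) had 3.68, 4.51 and 3.91 FPKM in wild strain cells and 6.77, 6.69 and 6.72 FPKM in *RRM2*-OE-TPC-1, replicates 1 to 3. The overexpressing libraries lay within a narrow band above all wild strain libraries. Its means of 4.03 ± 0.431 and 6.73 ± 0.0414 FPKM (SD, n = 3) differed by a log2 fold change of 0.73 (standard error 0.0786, limma adjusted p = 7.34e-05). *ATAD5* (ENSG00000176208; chromosome 17, 30831970 to 30895869, plus strand) had the lowest level of the 10 genes, 1.87, 1.82 and 1.79 FPKM in wild strain cells and 2.35, 2.50 and 2.67 FPKM in *RRM2*-OE-TPC-1. Here too no overexpressing library fell to the wild strain range. The log2 fold change of *ATAD5* was 0.43 (standard error 0.0857, limma adjusted p = 0.00227), from means of 1.83 ± 0.0412 and 2.51 ± 0.162 FPKM (SD, n = 3) and 202 to 303 reads per library.

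All 4 shared small subunits rose, with a median log2 fold change of 0.67, *RFC3* most and *RFC4* least. *RFC3* (ENSG00000133119; chromosome 13, 33818049 to 33966558, plus strand) had 8.63, 9.29 and 9.15 FPKM in wild strain replicates 1 to 3 and 15.7, 17.5 and 17.3 FPKM in *RRM2*-OE-TPC-1 replicates 1 to 3. The lowest overexpressing library, replicate 1, was still well above the wild strain values. From means of 9.02 ± 0.346 and 16.8 ± 0.947 FPKM (SD, n = 3) the log2 fold change was 0.89 (standard error 0.0540, 95% confidence interval 0.77 to 1.02, limma adjusted p = 2.96e-06), higher than that of 94.0% of the genes tested. *RFC4* (ENSG00000163918; chromosome 3, 186789880 to 186807058, minus strand) had 11.3, 10.6 and 11.6 FPKM in wild strain cells and 15.4, 14.2 and 14.8 FPKM in *RRM2*-OE-TPC-1. Its groups were apart, though on the log2 scale by less than those of the other small subunits. The means were 11.2 ± 0.511 and 14.8 ± 0.611 FPKM (SD, n = 3) and the log2 fold change was 0.40 (standard error 0.0505, 95% confidence interval 0.29 to 0.52, limma adjusted p = 1.76e-04).

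The remaining small subunits lay between these. *RFC2* (ENSG00000049541; chromosome 7, 74231499 to 74254458, minus strand) had 10.6, 10.6 and 9.79 FPKM in wild strain cells and 16.6, 16.2 and 16.0 FPKM in *RRM2*-OE-TPC-1. Its libraries were tight within each group and far apart between groups. Means of 10.3 ± 0.465 and 16.3 ± 0.259 FPKM (SD, n = 3) gave a log2 fold change of 0.65 (standard error 0.0451, limma adjusted p = 6.00e-06). *RFC5* (ENSG00000111445; chromosome 12, 118013588 to 118033130, plus strand) had 5.85, 6.17 and 5.87 FPKM in wild strain cells and 8.71, 10.3 and 10.2 FPKM in *RRM2*-OE-TPC-1. As with *RFC3*, the overexpressing replicate 1 was the lowest of its group without reaching the wild strain range. The log2 fold change of *RFC5* was 0.69 (standard error 0.0716, limma adjusted p = 5.61e-05), from means of 5.96 ± 0.179 and 9.73 ± 0.889 FPKM (SD, n = 3), and it was 0.77 without that library. Exons of *WSB2* on the opposite strand share 186 bases with *RFC5*. The library kit marks strand, but whether the authors counted by strand is not given in the sources used here. How reads in bases shared between genes were counted is not given either. With even coverage, the *WSB2* reads expected in these bases equal 21.6% of the *RFC5* reads. Whether any of them were counted for *RFC5* is not known. *WSB2* itself had a log2 fold change of 0.74. The same estimate for *CHTF18* and *RPUSD1* (log2 fold change 0.77) was 7.18%, and it was at most 2.65% for the others of the 10 genes.

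All RPA subunits rose, with a median log2 fold change of 0.70. *RPA1* (ENSG00000132383; chromosome 17, 1829702 to 1900082, plus strand), the large DNA-binding subunit, had 17.3, 16.5 and 17.1 FPKM in wild strain replicates 1 to 3 and 29.3, 26.8 and 26.7 FPKM in *RRM2*-OE-TPC-1 replicates 1 to 3. It had the highest level of the 10 genes in every library. Means of 17.0 ± 0.424 and 27.6 ± 1.45 FPKM (SD, n = 3) gave a log2 fold change of 0.70 (standard error 0.0459, limma adjusted p = 4.69e-06). *RPA2* (ENSG00000117748; chromosome 1, 27891524 to 27914746, minus strand), the subunit that is phosphorylated after replication stress, had 12.4, 10.8 and 12.2 FPKM in wild strain cells and 24.6, 23.4 and 21.3 FPKM in *RRM2*-OE-TPC-1. Even its lowest overexpressing library was far above the wild strain libraries. With means of 11.8 ± 0.882 and 23.1 ± 1.69 FPKM (SD, n = 3), a ratio of 1.96, it had the largest log2 fold change of the 10, 0.97 (standard error 0.0707, 95% confidence interval 0.80 to 1.13, limma adjusted p = 8.35e-06), higher than that of 95.1% of the genes tested. The interval covers the threshold of 1, and the value passed it at 1.00 when TPC-1 replicate 1 was left out and at 1.02 when *RRM2*-OE-TPC-1 replicate 3 was. *RPA3* (ENSG00000106399; chromosome 7, 7636518 to 7718607, minus strand), the smallest subunit, had 4.10, 3.75 and 4.48 FPKM in wild strain cells and 6.04, 6.30 and 5.69 FPKM in *RRM2*-OE-TPC-1. Its groups were also separate. The means of 4.11 ± 0.366 and 6.01 ± 0.308 FPKM (SD, n = 3) gave a log2 fold change of 0.54 (standard error 0.0783, limma adjusted p = 4.08e-04).

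**Figure D2:**
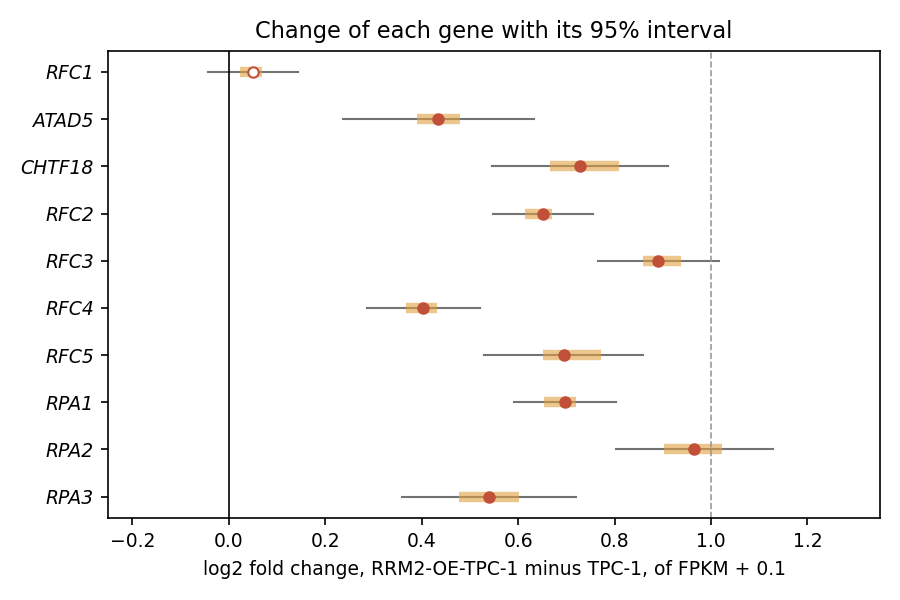
Log2 fold change (*RRM2*-OE-TPC-1 minus TPC-1) of the 10 genes from limma, with grey lines for the 95% confidence interval and orange bars for the range with each library left out in turn. Filled points passed an adjusted p of 0.05, and the dashed line marks the threshold of 1, which *RPA2* at 0.97 approached most closely, whereas *RFC1* at 0.05 lay across 0.

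The promoters of *RFC3* and *RFC4*, the small subunits that rose most and least, and of *RPA1* and *RFC1*, the most abundant riser and the gene that did not pass the test, are shown for their sequence. Entries of RefSeq (GRCh38.p14) matched 7 of the 10 genes by symbol, *RFC1* to *RFC5*, *CHTF18* and *RPA1*, the others being *ATAD5*, *RPA2* and *RPA3*. Each line gives the 250 bases before the RefSeq start, 5′ to 3′ along the gene, with its position and strand in the gene's name line. This start can differ from that of the gene as counted. The stretches of *RFC4* and *RPA1* lie within the gene spans given above, and those of *RFC3* and *RFC1* do in part. Capitals mark matches, on either strand, to the E2F words TTCCCGC, then TTCGCGC, then TTGGCGC and to the CCAAT box, so that a word on the other strand appears as its reverse complement.
*RFC3*, chr13:33817899-33818148, plus strand: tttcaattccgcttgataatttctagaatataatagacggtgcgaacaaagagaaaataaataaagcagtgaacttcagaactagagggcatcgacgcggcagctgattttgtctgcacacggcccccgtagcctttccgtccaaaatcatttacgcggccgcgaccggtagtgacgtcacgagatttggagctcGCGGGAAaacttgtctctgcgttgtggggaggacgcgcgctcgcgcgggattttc
*RFC4*, chr3:186806483-186806732, minus strand: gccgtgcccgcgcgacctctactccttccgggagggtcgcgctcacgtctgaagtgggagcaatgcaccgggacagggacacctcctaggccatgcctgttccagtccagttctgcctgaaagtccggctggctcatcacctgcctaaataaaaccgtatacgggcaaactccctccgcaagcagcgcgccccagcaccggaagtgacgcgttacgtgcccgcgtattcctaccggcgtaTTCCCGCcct
*RPA1*, chr17:1829755-1830004, plus strand: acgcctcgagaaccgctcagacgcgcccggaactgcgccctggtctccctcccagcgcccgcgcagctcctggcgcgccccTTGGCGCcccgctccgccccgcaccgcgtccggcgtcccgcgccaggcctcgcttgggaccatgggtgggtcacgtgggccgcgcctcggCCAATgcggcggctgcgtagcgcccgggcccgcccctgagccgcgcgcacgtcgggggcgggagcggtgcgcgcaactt
*RFC1*, chr4:39366363-39366612, minus strand: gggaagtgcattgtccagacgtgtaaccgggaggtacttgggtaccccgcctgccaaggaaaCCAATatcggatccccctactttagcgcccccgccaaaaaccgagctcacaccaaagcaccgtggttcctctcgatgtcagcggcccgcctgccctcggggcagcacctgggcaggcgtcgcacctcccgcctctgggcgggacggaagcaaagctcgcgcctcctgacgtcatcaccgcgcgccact
In *RFC3*, TTCCCGC lies on the other strand from position -55, where -1 is the last base before the start. *RFC4* holds the same word on the gene's strand from -10 and, past the printed stretch, on the other strand from 23, counted from 1 at the start. *RPA1* holds TTGGCGC from -169 and CCAAT from -79 and 7. In *RFC1*, CCAAT lies from -188, and the overlapping words TTGGCGC and TTCGCGC lie past the start, from 35 and 38. Over windows from 250 bases before to 50 after the start, at least 1 E2F word was found in 6 of the 7 promoters, all but that of *CHTF18*, and in 11.0% of the 35116 promoters in the table. The words are rich in G and C. The 250 bases before the start held from 50.8% (*RFC3*) to 82.8% (*CHTF18*) G and C in the 7 promoters. The share over all promoters was not matched for this. By word, TTCCCGC was in 6.55% of all promoters, TTGGCGC in 3.04% and TTCGCGC in 2.24%. CCAAT was in 4 of the 7 (*CHTF18*, *RFC1*, *RFC5* and *RPA1*) and in 34.6% of all promoters, and the cell cycle homology word TTTGAA was in 0 of the 7 and in 15.2% of all. Any link between these words and the changes in level was not tested, and *ATAD5*, *RPA2* and *RPA3* had no promoter entry. A match is a description of the letters and not a measured binding site.

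Among the large subunits, *RFC1* took a smaller share of the summed FPKM in every overexpressing library. *RFC1* made up 71.0%, 68.6% and 70.1% of the summed FPKM of *RFC1*, *CHTF18* and *ATAD5* in TPC-1 and 61.6%, 59.9% and 59.7% in *RRM2*-OE-TPC-1, replicates 1 to 3. The groups did not overlap. The mean share was 69.9% ± 1.19 in wild strain cells and 60.4% ± 1.02 in the overexpressing cells (SD, n = 3), a difference of -9.50 percentage points (two-sided exact permutation test, p = 0.1, the smallest that 3 libraries against 3 allow). *CHTF18* took up most of it, with a share of 20.7% ± 1.58 in wild strain cells and 28.8% ± 0.324 in *RRM2*-OE-TPC-1, and *ATAD5* had 9.39% ± 0.394 and 10.8% ± 0.797 (SD, n = 3, exact permutation p = 0.1 each). The p-values of 14 such shares and ratios, tested in the same way, were adjusted together. The adjusted p was 0.108 for the 13 at 0.1 and 0.2 for the other, so none could pass 0.05. The same test was run on the mean of *RFC2* to *RFC5* against *RFC1*, which is outside this set and is described below without a p.

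The small subunits stood higher against *RFC1* as well. In TPC-1 the mean log2 level of *RFC2* to *RFC5* lay below that of *RFC1*, by -0.62, -0.62 and -0.59 in replicates 1 to 3, and in *RRM2*-OE-TPC-1 it was about equal to it, at -0.09, 0.06 and 0.04. Each small subunit showed this when taken singly, all against the same *RFC1* level, which changed little. These ratios thus mainly restate the changes of the small subunits given above. The log2 ratio to *RFC1* went from -0.59 to 0.25 for *RFC3*, from -0.39 to 0.21 for *RFC2*, from -0.28 to 0.07 for *RFC4* and from -1.18 to -0.53 for *RFC5* (group means, n = 3), with no overlap between groups. *RAD17*, the large subunit of the checkpoint clamp loader, went the other way, from -0.83 to -1.32. The small subunits also differed among themselves, *RFC3* having stood at -0.30 against *RFC4* in TPC-1 and at 0.18 in *RRM2*-OE-TPC-1. Within the RPA trimer, the log2 ratio of *RPA2* to *RPA1* was -0.48, -0.61 and -0.49 in wild strain cells and -0.25, -0.19 and -0.32 in *RRM2*-OE-TPC-1, again without overlap. That of *RPA3* to *RPA1* was -2.05, -2.11 and -1.91 in wild strain cells and -2.26, -2.07 and -2.21 in *RRM2*-OE-TPC-1. Its groups overlapped, and the mean difference of -0.16 had an exact permutation p of 0.2.

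**Figure D3:**
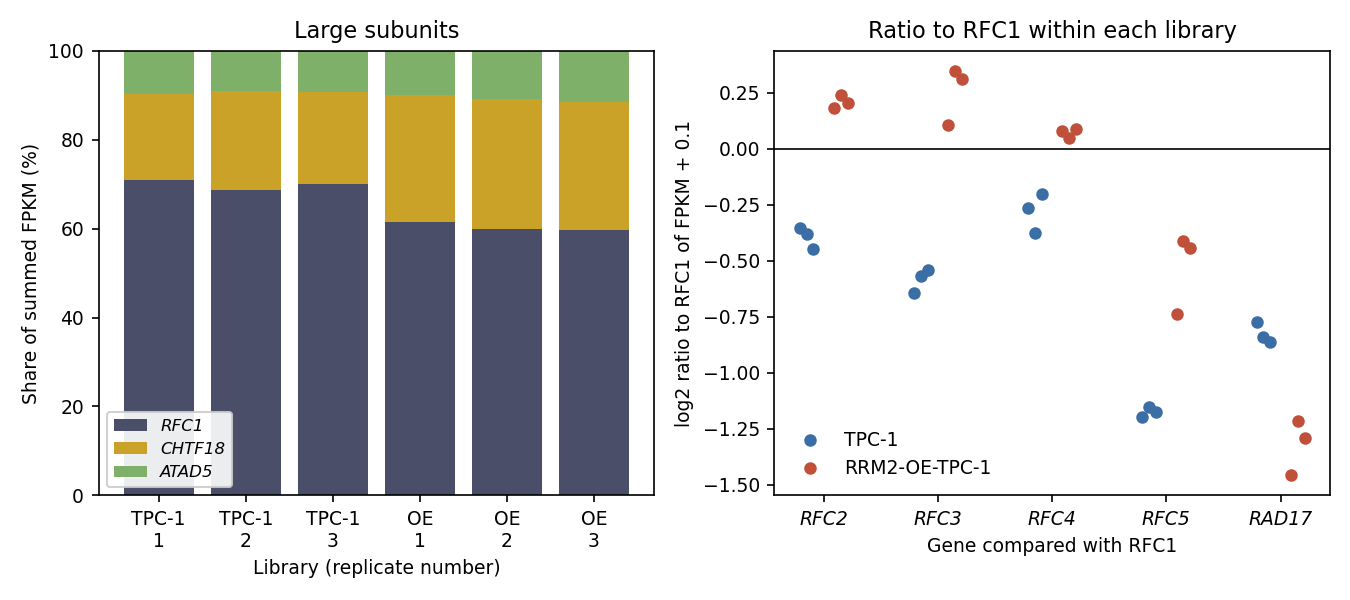
Left, share (percent) of *RFC1*, *CHTF18* and *ATAD5* in their summed FPKM in each of the 6 libraries; right, log2 ratio to *RFC1* of *RFC2* to *RFC5* and *RAD17*, with a point per library. The mean *RFC1* share is 69.9% in TPC-1 and 60.4% in the overexpressing libraries, where the ratios of the 4 small subunits are higher and that of *RAD17* is lower (-1.32 against -0.83).

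The order of levels per length differed between the strains. In TPC-1 the mean FPKM fell in the order *RPA1*, *RFC1*, *RPA2*, *RFC4*, *RFC2*, *RFC3*, *RFC5*, *RPA3*, *CHTF18* and *ATAD5*, and the libraries of *RPA2* overlapped those of *RFC4*, as did those of *RPA3* and *CHTF18*. In *RRM2*-OE-TPC-1 the order was *RPA1*, *RPA2*, *RFC3*, *RFC2*, *RFC4*, *RFC1*, *RFC5*, *CHTF18*, *RPA3* and *ATAD5*, with overlap of *RFC3* and *RFC2* and of *RFC4* and *RFC1*. *RFC1* thus went from second to sixth while its own level stayed within the spread described above. This order depends on the gene length used for FPKM, which counts every annotated exon. *RFC4* is counted over 2997 bases, whereas its longest protein-coding transcript has 1448, and over that length, an alternative added after the values were seen, its mean in TPC-1 would be 23.1 and that of *RPA1* 21.5, in place of 11.2 and 17.0. *RPA3* is counted over 3232 bases, of which its principal transcripts hold 847 to 2020. The ratio of a single gene's FPKM between libraries does not depend on this length, whereas shares over several genes, the pseudocount and the minimum of 0.5 FPKM do.

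PCNA, the ring these loaders act on, had a larger log2 fold change than any of them. *PCNA* (chromosome 20, 5114953 to 5126626, minus strand) had 35.0, 34.4 and 33.0 FPKM in wild strain cells and 123, 119 and 123 FPKM in *RRM2*-OE-TPC-1. The groups were far apart, with a log2 fold change of 1.83 (standard error 0.0340, limma adjusted p = 1.14e-08). Its log2 ratio to *RFC1* went from 1.32 ± 0.0346 to 3.10 ± 0.0374 (SD, n = 3).

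Of 9 listed partners of the alternative loaders, 3 rose, 2 fell and 4 did not pass the test, with a median log2 fold change of 0.07, and *DSCC1* alone passed both thresholds. These counts are close to the shares over all genes tested, of which 34.9% rose, 32.7% fell and 11.5% passed both thresholds. *DSCC1* and CHTF8 join CHTF18 in its loader. *DSCC1* had 3.18, 2.95 and 3.98 FPKM in wild strain cells and 10.9, 10.8 and 11.2 FPKM in *RRM2*-OE-TPC-1, replicates 1 to 3. That was the widest separation among these partners, with a log2 fold change of 1.69 (standard error 0.102, limma adjusted p = 2.89e-06). *CHTF8* had 22.5, 20.6 and 21.6 FPKM in wild strain cells and 20.9, 23.4 and 23.6 FPKM in *RRM2*-OE-TPC-1. Its groups overlapped, and the log2 fold change of 0.07 did not pass the test (limma adjusted p = 0.314). The *HAS3* reads (log2 fold change 0.89) expected in shared opposite-strand exons equal 11.6% of the *CHTF8* reads. Whether any of them were counted for *CHTF8* is not known. Against *CHTF18*, the log2 ratio of *DSCC1* thus went from -0.26 to 0.70 and that of *CHTF8* from 2.39 to 1.73, without overlap between groups.

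The checkpoint clamp and its loader gave mixed values. *RAD17* fell from 7.88, 7.68 and 7.32 FPKM in TPC-1 to 5.26, 5.85 and 5.61 FPKM in *RRM2*-OE-TPC-1, a log2 fold change of -0.45 (standard error 0.0592, limma adjusted p = 2.45e-04). No library of one group reached the other. By the same estimate, reads of *TAF9* (log2 fold change 0.11) in shared opposite-strand exons equal 31.5% of the *RAD17* reads and those of *AK6* 8.02%. Whether any of them were counted for *RAD17* is not known. Of the ring that RAD17 loads, *HUS1* rose from 3.75 ± 0.264 to 5.76 ± 0.689 FPKM (SD, n = 3), a log2 fold change of 0.60 with a limma adjusted p of 6.65e-04, whereas *RAD9A* (0.21, adjusted p = 0.0984) and *RAD1* (0.02, adjusted p = 0.826) did not pass the test. The value of *RAD9A* is uncertain, since by the same estimate *PPP1CA* reads in shared opposite-strand exons equal 108% of the *RAD9A* reads. That estimate exceeds the counted reads, so it cannot be a share of them. Reads of *BRIX1* (log2 fold change 0.48), also on the opposite strand, equal 10.5% of the *RAD1* reads by the same estimate. *RHNO1*, which binds that ring, fell from 15.1 ± 0.404 to 13.1 ± 0.253 FPKM (SD, n = 3), a log2 fold change of -0.20 with a limma adjusted p of 0.00207. *USP1* and *WDR48* form the deubiquitinase that ATAD5 brings to PCNA. *USP1* rose by a log2 fold change of 0.19 (limma adjusted p = 0.00284) and *WDR48* had -0.13 (limma adjusted p = 0.131).

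Among the enzymes and chaperones that ride on the clamp, most rose. The list of 18 holds *PCNA* itself beside PCNA-binding and polymerase genes. Of these 18, 17 were tested, 16 rose and 1 fell, with a median log2 fold change of 0.79. Both thresholds were passed by 6. *PCNA* counts among those that rose and among these 6. Over all genes tested, 34.9% were higher and 11.5% passed both thresholds. *RNASEH2A*, at no more than 10 reads in any library, was under the minimum. After *PCNA*, the largest increases were those of the flap endonuclease *FEN1*, with 15.6 ± 0.529 FPKM in wild strain cells and 42.2 ± 3.00 in the overexpressing cells (SD, n = 3; log2 fold change 1.43, limma adjusted p = 3.26e-07), and of *CHAF1B*, a subunit of the chromatin assembly factor that PCNA recruits, with 3.29 ± 0.126 and 8.23 ± 0.647 FPKM (log2 fold change 1.29, limma adjusted p = 1.94e-06). The gene that fell was *POLD4*, the smallest subunit of DNA polymerase delta. It had 3.97, 3.80 and 4.88 FPKM in wild strain cells and 2.38, 1.95 and 1.73 FPKM in *RRM2*-OE-TPC-1, with every overexpressing library below the wild strain range. Its log2 fold change of -1.03 (limma adjusted p = 2.44e-04) was short of the threshold when TPC-1 replicate 3 (-0.92) or *RRM2*-OE-TPC-1 replicate 3 (-0.93) was left out.

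Genes that act with RPA on single-stranded DNA rose in the main. Of 25 listed, 23 were tested, 16 rose, 4 fell and 3 did not pass the test, with a median log2 fold change of 0.52, and 6 passed both thresholds, all higher. Over all genes tested 34.9% rose, and 4.48% rose past both thresholds. *RPA4*, with at most 4 reads in any library, was under the minimum. *CLSPN*, the adaptor between ATR and its effector kinase, went from 2.03 ± 0.0472 to 9.14 ± 0.245 FPKM (SD, n = 3), with a log2 fold change of 2.12 (standard error 0.0578, limma adjusted p = 6.79e-08), the largest of this list. *POLA2* and *PRIM2*, subunits of the polymerase alpha-primase complex that lays primers, had log2 fold changes of 1.21 (limma adjusted p = 4.74e-05) and 1.20 (limma adjusted p = 5.34e-06). Those were followed by *RFWD3*, *BLM* and *ATRIP*. The value of *ATRIP*, 1.00, was below 1 when TPC-1 replicate 2 (0.99), TPC-1 replicate 3 (0.996) or *RRM2*-OE-TPC-1 replicate 2 (0.98) was left out, and *DNA2*, at 0.95, passed the threshold when TPC-1 replicate 3 was left out (1.05) and in no other such fit. The genes that fell were *RPAIN*, which carries RPA into the nucleus, at -0.55, *ETAA1* at -0.38, *XPA* at -0.30 and *WRN* at -0.20 on the log2 scale. None of these 4 reached the fold threshold. *WRN* had a limma adjusted p of 0.0283, which rose to as much as 0.0948 under the alternatives. Some of the 16 that rose also failed the adjusted p of 0.05 under at least 1 alternative.

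**Figure D4:**
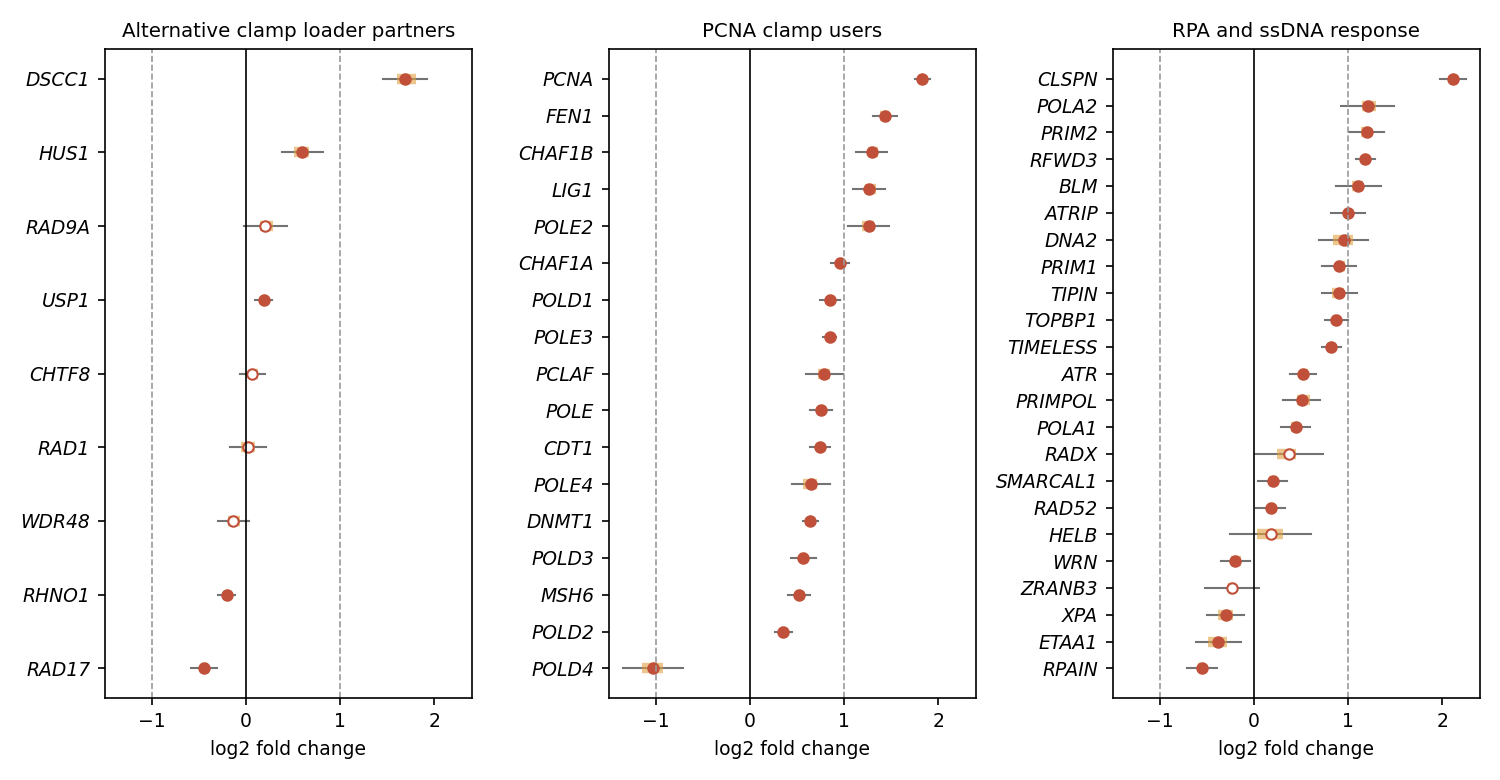
Log2 fold change (*RRM2*-OE-TPC-1 minus TPC-1) with its 95% confidence interval for the tested genes of the lists of alternative loader partners (9 genes), PCNA clamp users (17) and RPA and single-stranded DNA response (23). Filled points passed an adjusted p of 0.05 and dashed lines mark 1 and -1; *DSCC1*, *PCNA* and *CLSPN* lie farthest to the right in their panels, and *POLD4* is the gene left of -1.

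By the shape of the profile over the 6 libraries, the genes most like the mean of *RFC1* to *RFC5* among 11441 protein-coding genes were *MSN*, *ATP6V0E1* and *TMEM245*, with root mean square differences of 0.0184, 0.0195 and 0.0196 on the log2 scale after centring. Those most like the mean of *RPA1* to *RPA3* were *MRPL51* (0.0187), *PSMB3* (0.0296) and *SNRPD3* (0.0313). Likeness over 6 libraries in 2 groups reflects mainly the size of the difference between the groups.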

How the data were processed

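mRNA of 3 wild strain TPC-1 and 3 *RRM2*-OE-TPC-1 libraries was sequenced. The methods describe poly(A) selection, whereas the labels name an rRNA removal kit and a digestion with RNase R. The submitters' processing notes name HISAT2 2.0.5, featureCounts 1.5.0, DESeq2 1.20.0 and GRCh38.p14. The authors deposited FPKM for 58735 genes, whose identifiers and positions match GENCODE 29. Within a tolerance of 0.01 reads, 100.0% of values were whole multiples of 1 read, so reads were recovered. Depth was 14317091 to 17084067 reads, and 202 to 2520 reads per library stood behind each of the 10 genes. The depth that scaled the deposited FPKM was 1.03 to 1.05 times the reads on genes in TPC-1 libraries. In *RRM2*-OE-TPC-1 libraries it was 0.997 to 1.01 times. The deposited scaling thus gives slightly higher log2 fold changes than scaling to library totals.

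Genes reaching 0.5 FPKM and 10 reads in 3 or more libraries were tested with limma 3.58.1 (lmFit, eBayes with trend) in R 4.3.3 on log2(FPKM + 0.1), which understates changes of low genes. Called genes passed thresholds of 0.05 on the adjusted p and of 1 on the absolute log2 fold change. The study's own DESeq2 test on counts was not used, the deposited unit being FPKM. Shares and ratios were tested by exact permutation in Python 3.11.15 with scipy 1.17.1. The pipeline was tested on simulated data in which few genes changed, each by more than the threshold of 1. Changes as small as those of the 10 genes were not simulated.

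The 10 genes and the lists were chosen with earlier results of these data known. Named are the 10 genes, *RRM2*, *PCNA*, the loader partners, in each list the 3 called genes with the largest change in each direction, and the 3 genes nearest in profile. *RFWD3*, *BLM*, *ATRIP*, *DNA2*, the 4 genes that fell in the last list and those under the minimum were named after their values were seen, as were overlapping genes. Ratios other than *RPA2* and *RPA3* to *RPA1*, the small subunits to *RFC1* and the *RFC1* share were added later. Some genes of the lists are not reported here. Alternatives were other filters, scalings and pseudocounts, a replicate block, each library left out, voom, a test of a change above 1 (limma treat) and protein-coding genes alone. Replicates of each group differed by more than counting error, so none was counted as a duplicate.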

Additional observations from a re-analysis of the deposited data

How the results depend on the processing

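The 9 genes past the adjusted p were 9 under every alternative, and the median log2 fold change of the 10 genes stayed between 0.62 and 0.68. Genes past both thresholds numbered 0, and 0 to 1 with each library left out: *RPA2* passed when TPC-1 replicate 1 (1.00) or *RRM2*-OE-TPC-1 replicate 3 (1.02) was left out. Limma treat gave 0. *RFC1* reversed to -0.0069 when scaled to library totals (adjusted p = 0.895) and to -0.0095 with voom (adjusted p = 0.865), the other 148 values of single genes keeping their direction and their side of the adjusted p of 0.05, and these scalings moved the median of all genes from 0.011 to -0.046 and -0.048. With a pseudocount of 1, the single-stranded DNA list had 2 genes past both thresholds in place of 6, the PCNA clamp list 4 in place of 6, and all genes 716 in place of 1560. With each library left out, each of these lists had 5 or 6. With no filter on low values the number over all genes was 2281. Replicate numbers did not pair the libraries (correlations of same-numbered deviations -0.0105, -0.0060 and -0.055). With the replicate number as a block, 9 of the 10 genes passed the adjusted p and 0 passed both thresholds, and no other call of the 10 genes changed. The *RFC1* share differed by -10.1 to -8.96 percentage points, *RPA2* to *RPA1* by 0.23 to 0.30, *RPA3* to *RPA1* by -0.21 to -0.10 and the small subunits to *RFC1* by 0.58 to 0.66 with each library left out. At 202 to 303 reads *ATAD5* was the least precisely counted of the 10 genes.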
